A study of Mus musculus with 6 samples.

Results

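The RNA-seq libraries TG-3 and WT-3 stood apart from the other 4 libraries of the series, and the genes that set them apart are described here. They were taken by the replicate number in their labels, so the comparison is of 2 libraries numbered 3 with 4 libraries numbered 1 and 2, which together are all 6 libraries of the series. Each library was made from the medial prefrontal cortex (mPFC) of adult C57BL/6J mice of 10 to 12 weeks, and the study's methods state that the mice were male and that tissue of 2 mice of one genotype was pooled per library. The TG group (n = 3) carried an EGFP-Shank3 transgene in addition to the endogenous Shank3, a scaffold protein of excitatory synapses, and the WT group (n = 3) was made of wild-type littermates without it. The deposited values were normalized read counts for 18254 genes, which summed to between 28363967 and 29447717 per library.

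The mPFC is a cortical region of layered excitatory projection neurons, inhibitory interneurons, glia and blood vessel cells, and each of these cell classes has its own marker mRNAs. Immediate early genes such as Fos and Nr4a1 are transcribed within minutes of neuronal activity or other stimuli without new protein synthesis, and they include transcription factors, phosphatases and synaptic proteins. Processed pseudogenes are intronless copies of mRNAs that were inserted elsewhere in the genome, and those of ribosomal proteins are many in the mouse. Reads from a stretch that a gene and its copy share can be assigned to either of them when transcripts are quantified.

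Library number took more of the variation than genotype did. Of the total sum of squares of log2(value + 1) over 16714 genes with a mean value of at least 5, the contrast of the libraries numbered 3 took 50.5% and the contrast of TG with WT took 12.8%. The first principal component carried 50.7% of the variance, with scores of 47.0 for TG-3 and 54.4 for WT-3, while the other 4 libraries lay between -27.9 and -23.1. In the limma fit with genotype in the model, 2344 genes (14.0% of those tested) passed a Benjamini-Hochberg adjusted p of 0.05. Of these, 1281 (7.66%) were higher in the libraries numbered 3 and 1063 (6.36%) were lower.

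The difference had the same direction in TG and WT for most genes. Each of the 2344 genes, which were chosen on the average of both genotypes, differed in the same direction in TG-3 against TG-1 and TG-2 as in WT-3 against WT-1 and WT-2. In 24.9% of all tested genes library 3 lay above both others in each genotype, and in 25.3% it lay below them. Over all tested genes 12068 (72.2%) had the same direction, and the differences of the TG and WT libraries, which share no library, had a Pearson correlation of 0.62 across genes (genes are not independent replicates). The differences were mostly small, with a median size of 0.42 on the log2 scale among called genes, but 317 called genes differed by more than 2-fold, 236 of them higher and 81 lower. Which mice, dissection days, extractions or sequencing runs the number 3 stands for was not given in the sources used here, so those cannot be told apart. The study's own read statistics list a lower mapping rate for the libraries numbered 3 than for the others, and its part in the differences was not tested. Leaving out WT-3 or TG-3, after which 1 library stands for the number 3, left 222 and 507 called genes, and leaving out TG-1 left 1401.

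**Figure D1:**
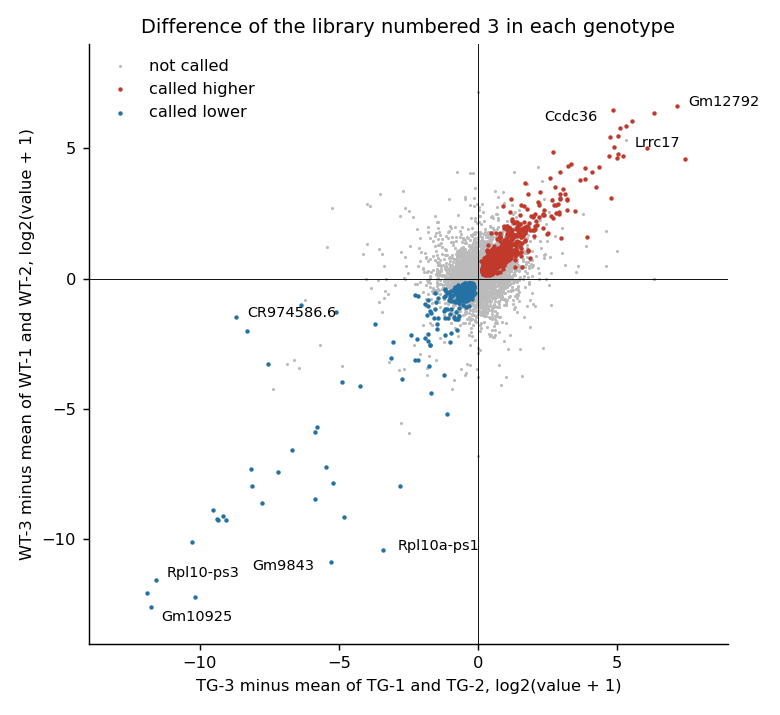
Each point is a gene, with the difference of TG-3 from the mean of TG-1 and TG-2 on the x axis and the difference of WT-3 from the mean of WT-1 and WT-2 on the y axis, both in log2(value + 1), and red and blue points are genes called higher and lower. The 2344 called genes lie below 0 or above 0 on both axes at once, and the points farthest down and to the left are genes listed at 0 in both libraries numbered 3, such as Rpl10-ps3 and Gm10925.

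The largest decreases were in genes that have a near-identical copy elsewhere in the genome. Rpl10 (chromosome X, 74270812 to 74273135 in GRCm38) encodes a protein of the large ribosomal subunit, and Rpl10-ps3 (chromosome 9, 50344201 to 50344968) is an intronless copy of it. The coding sequence of Rpl10 has 642 bases and was found in Rpl10-ps3 with 0 mismatches. The first 120 coding bases (GENCODE M21) are shown for the pair because no base of them can assign a read to one locus or the other, so none is in capitals.
Rpl10: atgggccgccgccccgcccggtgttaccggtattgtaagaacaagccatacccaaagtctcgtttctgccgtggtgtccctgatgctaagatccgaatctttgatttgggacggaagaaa
Rpl10-ps3: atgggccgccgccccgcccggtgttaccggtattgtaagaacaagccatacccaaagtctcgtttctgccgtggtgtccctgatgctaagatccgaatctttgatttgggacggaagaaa

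Rpl10-ps3 had 3215, 2930, 3374 and 2742 normalized counts in TG-1, TG-2, WT-1 and WT-2 and was listed at 0 in TG-3 and WT-3. That is at least 1022-fold lower against a floor of 3 normalized counts per library (adjusted p = 2.7e-10). Whether TG-3 and WT-3 were quantified with the same transcript index and settings as the others is not given in the sources used here, and its part in this and the other zeros was not tested. Rpl10 moved the other way, from 847, 1194, 1013 and 1271 in TG-1, TG-2, WT-1 and WT-2 to 4021 in TG-3 and 4133 in WT-3, and no library numbered 3 overlapped with the others (log2 difference 1.93 ± 0.14 SE, adjusted p = 7.0e-05). The sum of both loci was 4062, 4123, 4387 and 4012 in the libraries numbered 1 and 2 and 4021 and 4133 in TG-3 and WT-3, so the summed level overlapped between the groups. What differed was the division of the counts between the 2 loci.

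The same division was seen at other pairs. Fau encodes a ubiquitin-like protein fused to a ribosomal protein, and all 399 of its coding bases recur in the processed pseudogene Gm9843 without a mismatch, of which the first 120 are shown.
Fau: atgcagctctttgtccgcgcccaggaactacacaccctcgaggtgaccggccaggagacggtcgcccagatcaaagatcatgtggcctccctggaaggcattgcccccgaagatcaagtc
Gm9843: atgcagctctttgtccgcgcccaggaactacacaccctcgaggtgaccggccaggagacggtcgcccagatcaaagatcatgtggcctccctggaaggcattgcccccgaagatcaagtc

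Gm9843 had between 1664 and 2137 normalized counts in the libraries numbered 1 and 2, 46.2 in TG-3 and 0 in WT-3. Fau had 849, 539, 697 and 537 normalized counts in TG-1, TG-2, WT-1 and WT-2, 3550.0 in TG-3 and 3825 in WT-3 (log2 difference 2.52 ± 0.17 SE, adjusted p = 5.9e-05). Unlike for Rpl10, the sum of Fau and Gm9843 was also higher in both libraries numbered 3, at 3596 and 3825 against 2202 to 2833. Rps6-ps4, whose parent Rps6 has 747 coding bases that all recur in it, was listed at 0 in TG-3 and WT-3 and had 1064 to 1418 normalized counts in the others, and Rps6 itself was higher (0.65 ± 0.07 SE, adjusted p = 0.0011). The pattern was not limited to ribosomal proteins. Gm5884, a copy of the endosomal sorting gene Tom1, was listed at 0 in both libraries numbered 3 and had 536, 539, 560 and 675 normalized counts in the others, while Tom1 plus Gm5884 came to 914 and 972 against 857 to 962. Gm7336, a copy of the glycolytic gene Gapdh, was listed at 0 against 2894 to 5167, and Gapdh differed by 0.18 ± 0.06 (SE) with an adjusted p of 0.082.

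**Figure D2:**
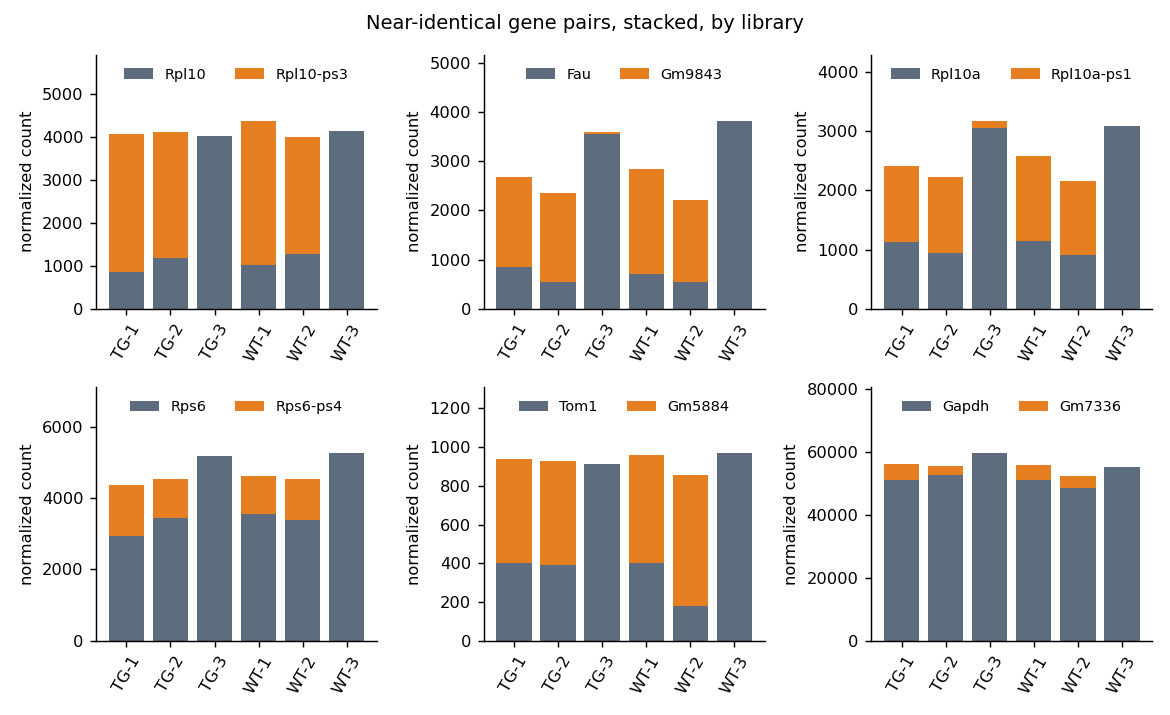
Stacked bars give the normalized counts of a gene (grey) and of its near-identical copy (orange) in each of the 6 libraries, for 6 pairs. The copy is nearly or wholly absent from TG-3 and WT-3 in every panel, while the height of the stack overlaps between the groups for Rpl10, Tom1 and Gapdh and is higher in TG-3 and WT-3 for Fau, Rpl10a and Rps6.

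In all, 157 pairs were found in which at least 90% of the 31-base words of the less abundant gene (its 31-mers) also occur in one more abundant tested gene. Of the less abundant members, 40 (25.5%) were called lower in the libraries numbered 3 and 11 (7.01%) were called higher, against 6.36% and 7.66% of all genes tested. Abundance was the mean over all 6 libraries, so a fall in the libraries numbered 3 could itself make a gene the less abundant member. Rpl10-ps3, for example, lay above Rpl10 in every library not numbered 3. The excess of lower copies over higher ones, and over all genes, was thus partly set by that choice. For the 40 that were lower, the more abundant partner was called higher in 15 pairs, lower in 6 and not called in 19. The partner was chosen on the same mean, so the count of higher partners was also partly set by that choice. Some partners were called lower together with their copy, such as Rpl21 (-0.42 ± 0.06 SE, adjusted p = 0.0021) with Gm28900, so the counts of the copy did not always reappear at the partner.

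Genes at 0 in one group of libraries and not in the other were also counted. A total of 18 genes were listed at 0 in both TG-3 and WT-3 and above 20 normalized counts in each of the other 4 libraries, and the reverse held for 0 genes. Of these 18, 16 shared at least 90% of their 31-mers with other genes. The exceptions were Rps12, a protein of the small ribosomal subunit (29.8% shared), and Babam2, a component of DNA repair complexes (2.37% shared). Rps12 had 589, 762, 436 and 805 normalized counts in TG-1, TG-2, WT-1 and WT-2, and its pseudogene Rps12-ps3 had 2142, 1891, 2454 and 1573 there and 2745 in TG-3 and 3414 in WT-3. Over the 4 Rps12 loci in the table the sum was 2577 to 2898 in the libraries numbered 1 and 2 and 2751 and 3418 in TG-3 and WT-3. Babam2 had 34.4, 52.5, 199.5 and 109 normalized counts in TG-1, TG-2, WT-1 and WT-2, so it was at least 33.0-fold lower against the floor.

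Across all tested genes, large differences went with shared sequence. Among genes with under 1% of their 31-mers shared, 12.4% of 10181 were called and 2.22% differed by more than 2-fold. Among genes with at least 90% shared, 25.8% of 368 were called and 38.0% differed by more than 2-fold. The directions differed in make-up, since 46 of the 81 called genes that were more than 2-fold lower shared at least 90% of their 31-mers, against 20 of the 236 that were more than 2-fold higher. Of the higher ones, 152 of 236 (64.4%) shared under 10%, as did 14225 of all 16714 tested genes, and 82 of the 152 had a mean under 50 normalized counts. When each copy was summed with its partner, 2408 of 16557 genes were called (8.01% higher and 6.54% lower), so the difference between the libraries was not limited to genes with copies. Of the 14225 genes sharing under 10% of their 31-mers, 7.23% were called higher and 6.02% lower.

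Several genes that share little sequence with others were many-fold higher in the libraries numbered 3. Lrrc17 (leucine-rich repeat containing 17, a secreted protein known from the regulation of bone resorption, chromosome 5, 21543559 to 21575904) had 328, 263, 215 and 196 normalized counts in TG-1, TG-2, WT-1 and WT-2, 11882 in TG-3 and 11997 in WT-3. The log2 difference was 5.60 ± 0.13 (SE, adjusted p = 3.2e-08), and both libraries numbered 3 lay far above the other 4. Ccdc36, a gene of meiotic recombination (chromosome 9, 108403611 to 108428484), had 121, 103, 87.4 and 65.5 normalized counts in the same order and 3913 and 4193 in TG-3 and WT-3 (5.45 ± 0.17 SE, adjusted p = 3.4e-07).

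Bmt2, which encodes an inhibitor of mTORC1 signalling that senses S-adenosylmethionine (chromosome 6, 13625673 to 13677966), had 973, 969, 932 and 1033 normalized counts in TG-1, TG-2, WT-1 and WT-2 and 4288 and 4082 in TG-3 and WT-3 (2.10 ± 0.07 SE, adjusted p = 4.2e-07). Exoc8, a subunit of the exocyst complex that tethers vesicles to the plasma membrane, was 1.42 ± 0.06 higher (SE, adjusted p = 4.1e-06), with 922 to 971 normalized counts in the 4 libraries and 2469.6 and 2568 in TG-3 and WT-3. Slx1b, a subunit of a structure-specific endonuclease, was 1.64 ± 0.08 higher (SE, adjusted p = 4.5e-06). These 5 genes shared between 0.57% and 8.76% of their 31-mers with other genes, and each was called under each other setting of the fit, including those without TG-3 and without WT-3. The same held for some pseudogenes. Gm12792 had 4.34 to 8.63 normalized counts in the libraries numbered 1 and 2 and 859.5 and 832 in TG-3 and WT-3 (6.90 ± 0.26 SE, adjusted p = 9.8e-07). Gm4034 had 12.3 to 18.2 normalized counts in those 4 libraries and 444 and 529.6 in TG-3 and WT-3 (4.91 ± 0.19 SE, adjusted p = 1.4e-06).

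The genes next to Lrrc17, Ccdc36, Bmt2, Exoc8, Slx1b and Gm12792 on the chromosome were called in 9 of 36 cases (25%), against 14.0% of all genes tested, and in both directions. Of the 3 tested genes on either side of Lrrc17, 0 of 6 were called by limma, and 0 had an unadjusted p under 0.05 (their differences ran from -0.16 to 0.90, and the highest, for the neighbouring Fbxl13, had an adjusted p of 0.30). For Ccdc36, 2 of 6 neighbours were called, Klhdc8b higher (0.49) and Lamb2 lower (-0.40), and for Bmt2, Tmem168 was lower (-0.56). Next to Slx1b, Bola2 was higher (0.49), and next to Gm12792, Sgip1 was (0.51). Around Exoc8, 4 of 6 were called, 2810004N23Rik higher (0.87) and Gnpat, Egln1 and Tsnax lower (-0.51, -0.29 and -0.37). Overlap with exons on the opposite strand was also examined. Genes called higher were 7.36% of the 11798 genes with no such overlap, 8.46% of the 4693 with some overlap under 50% and 6.84% of the 190 genes with at least 50% of their exonic bases overlapped.

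**Figure D3:**
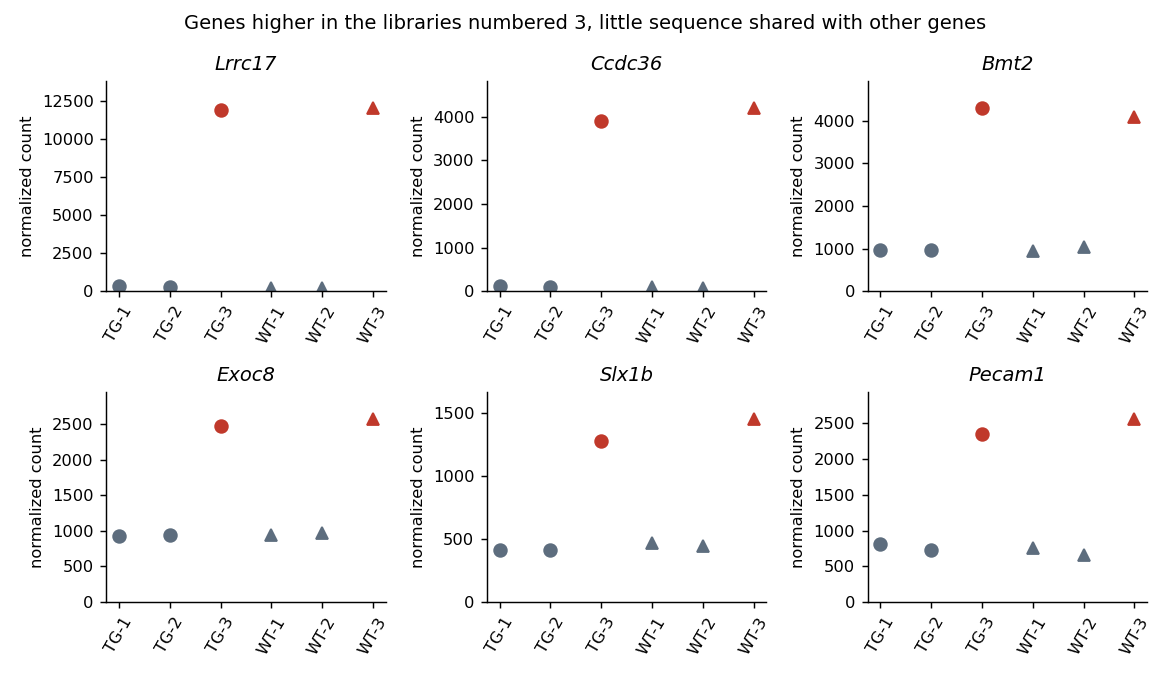
Normalized counts on a linear axis from 0 are plotted for 6 genes in the 6 libraries, TG as circles and WT as triangles, with the libraries numbered 3 in red. TG-3 and WT-3 lie close to each other and above the other 4 libraries for each gene, by the most for Lrrc17, at 11882 and 11997 against 196 to 328.

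Many immediate early genes were higher in the libraries numbered 3. Of the 22 on the list, all of which were tested, 14 (63.6%) were called higher and 0 lower by limma, against 7.66% and 6.36% of all genes. At an unadjusted p of 0.05 the counts were 17 higher and 1 lower. The median difference was 0.45, with 0.49 in TG and 0.34 in WT, against -0.0024 over all genes. Fos, a subunit of the AP-1 transcription factor, had 2264, 1844, 2313 and 2408 normalized counts in TG-1, TG-2, WT-1 and WT-2, 3886 in TG-3 and 4013 in WT-3 (0.85 ± 0.09 SE, adjusted p = 0.00062). Nr4a2, an orphan nuclear receptor, had 619, 631, 582 and 693 against 1095 and 1356 (0.95 ± 0.10 SE, adjusted p = 0.00065). Its relative Nr4a1 had 5336, 4404, 5179.9 and 4577 against 8413 and 8014 (0.76 ± 0.09 SE, adjusted p = 0.0010). In these 3 genes neither library numbered 3 overlapped with the other 4.

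Other members of the list covered several functions. The AP-1 subunits Jun and Junb were 0.62 ± 0.07 and 0.84 ± 0.11 higher (SE, adjusted p = 0.0012 and 0.0022), and Dusp1, a phosphatase that inactivates MAP kinases, was 0.73 ± 0.09 higher (SE, adjusted p = 0.0017). The neuronal activity-regulated factor Npas4 had 1559, 1122, 1464 and 1109 normalized counts in the libraries numbered 1 and 2 and 2759 and 2205 in TG-3 and WT-3 (0.92 ± 0.15 SE, adjusted p = 0.0054). Btg2, an antiproliferative gene, had the largest difference of the list, 1.27 ± 0.25 (SE, adjusted p = 0.012), but also a wide spread, from 508 to 938 normalized counts, in the other libraries. The synaptic gene Arc and the transcription factor Egr1 differed less, by 0.32 ± 0.06 and 0.27 ± 0.06 (SE, adjusted p = 0.010 and 0.024). Homer1, a scaffold of the postsynaptic density, had 7426, 8203, 6397 and 9147 normalized counts in the 4 libraries and 5832 and 5919.5 in TG-3 and WT-3 (-0.40 ± 0.12 SE, adjusted p = 0.063, and 0.013 with a block for the replicate number), and Bdnf and Fosl2 had differences of 0.09 and -0.02. Each of the 22 genes shared at most 0.523% of its 31-mers with other genes. Without TG-3 and without WT-3, 4 genes of the list were called each time, all higher. A block for the replicate number gave 15 higher and 1 lower, with Ier2 (adjusted p = 0.020) and Homer1 (adjusted p = 0.013) added.

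**Figure D4:**
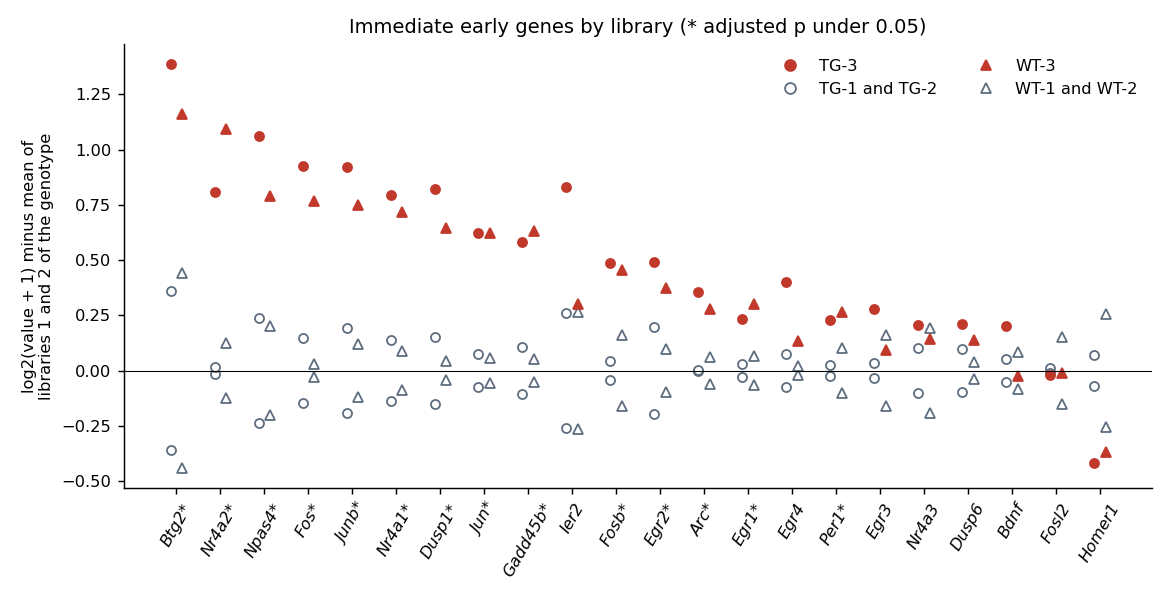
Each column is one of 22 immediate early genes and each point a library, placed at its log2(value + 1) minus the mean of libraries 1 and 2 of its genotype, with the libraries numbered 3 in filled red and TG as circles and WT as triangles. TG-3 and WT-3 lie above both other libraries of their genotype for the 14 called genes, and below them for Homer1.

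The promoters of these genes were searched for short motifs, on both strands, in the window from 250 bases before to 50 after the start (RefSeq, GRCm38.p6), which RefSeq gave for 18 of the 22 listed genes, including 12 of the 14 called ones. The cAMP response element TGACGTCA occurs in 1.79% of 32851 promoters, and here in Btg2 and Dusp1. TATAAA occurs in 13.6% of promoters and here in Fos, Gadd45b, Junb and Nr4a2, and the GC box GGGCGG occurs in 35.7% and here in 14 genes, 11 of them called. The E-box CACGTG occurs in 7.15% and here in 4 genes, all called and CCAAT in 37.4% and here in 7. The exact serum response element that was searched occurs in 0.0639% of promoters and here in 0. No motif contains another. The percentages count promoters, while the list counts are of genes with the motif in any of their promoters. A gene with several promoters thus had more chances of a match. The 250 bases before the start of Dusp1 (chr17:26508473-26508722, minus strand), Btg2 (chr1:134079156-134079405, minus strand) and Fos (chr12:85473640-85473889, plus strand) are shown because these genes differed while carrying an exact element, the capitals marking TGACGTCA in Dusp1 and Btg2 and TATAAA in Fos. A match is a stretch of letters and not a measured binding site.
Dusp1: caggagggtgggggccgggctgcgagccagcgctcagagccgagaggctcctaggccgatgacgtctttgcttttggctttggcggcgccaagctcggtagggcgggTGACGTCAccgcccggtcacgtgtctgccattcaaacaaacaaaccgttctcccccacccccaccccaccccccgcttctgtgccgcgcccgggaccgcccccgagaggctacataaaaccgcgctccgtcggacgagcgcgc
Btg2: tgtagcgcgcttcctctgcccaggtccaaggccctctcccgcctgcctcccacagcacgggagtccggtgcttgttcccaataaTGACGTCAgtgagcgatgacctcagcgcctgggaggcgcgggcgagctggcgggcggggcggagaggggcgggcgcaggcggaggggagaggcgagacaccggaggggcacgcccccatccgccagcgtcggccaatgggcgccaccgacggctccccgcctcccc
Fos: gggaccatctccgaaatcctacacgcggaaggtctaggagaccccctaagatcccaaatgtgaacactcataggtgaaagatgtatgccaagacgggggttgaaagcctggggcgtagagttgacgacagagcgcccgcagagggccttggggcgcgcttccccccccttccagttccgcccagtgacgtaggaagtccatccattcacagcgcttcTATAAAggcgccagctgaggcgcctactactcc

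Of 85 tested genes of the cytosolic ribosome, 36 (42.4%) were called higher and 5 (5.88%) lower, against 7.66% and 6.36% of all genes, and the median difference was 0.21. The share of all normalized counts taken by the 87 ribosomal genes in the table was 0.869% and 0.850% in TG-1 and TG-2 and 0.984% in TG-3, and 0.924% and 0.804% in WT-1 and WT-2 and 1.05% in WT-3 (exact permutation within genotype, 2-sided p = 0.111, the smallest that 9 arrangements allow). The largest increases were in Rpl27, with 214, 225, 189 and 209 normalized counts in the libraries numbered 1 and 2 and 1026 and 1402 in TG-3 and WT-3 (2.52 ± 0.14 SE, adjusted p = 1.3e-05), and in Fau. Rpl12, another protein of the large subunit, was 1.72 ± 0.09 higher (SE). The 5 that were lower were Rps12, Rpl21, Rps4x, Rps15a and Rpl30. Rpl4, the most abundant member, did not pass the test (-0.01 ± 0.05 SE, adjusted p = 0.91). Ribosomal protein mRNAs share sequence with many pseudogenes, and of the 10 that share under 10% of their 31-mers with other genes, 4 were called higher and 1 lower, with a median of 0.07. Summing near-identical pairs left 35 higher and 5 lower. Without TG-3, 19 were higher and 2 lower, and without WT-3, 9 and 1.

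The mitochondrial genes were read as 3 lists, beside 7.66% of all genes called higher and 6.36% lower. Among 13 protein-coding genes of the mitochondrial genome, 5 were called higher (38.5%) and 0 lower, and their summed share of all counts was 9.24% and 8.89% in TG-1 and TG-2, 9.87% in TG-3, 8.76% and 8.75% in WT-1 and WT-2 and 11.3% in WT-3. The gene mt-Nd6, which is the one protein-coding gene on the light strand, differed most, with 54670 and 51028 normalized counts in TG-1 and TG-2 against 103015 in TG-3, and 50485 and 50032 in WT-1 and WT-2 against 122867 in WT-3 (1.13 ± 0.08 SE, adjusted p = 8.7e-05). For the other 4 (mt-Nd2, mt-Atp8, mt-Nd1 and mt-Atp6) the difference was between 0.33 and 0.58 (mt-Atp6 shares 99.5% of its 31-mers with other genes, and its adjusted p was 0.060 with a block for the replicate number), and mt-Co1, the most abundant gene, was at 0.28 ± 0.09 (SE, adjusted p = 0.076). With quantile normalization 4 of the 13 were called higher and 2 lower, without TG-3 3 were called higher, and without WT-3 1 was. Nuclear genes of the respiratory chain were called higher in 24 (28.9%) and lower in 6 (7.23%) of 83, with a median of 0.09, and among the 61 sharing under 10% of their 31-mers in 12 and 6. The summed share of all 84 of these genes in the table overlapped between the groups, at 0.822%, 0.784% and 0.805% in TG-1, TG-2 and TG-3 and 0.820%, 0.776% and 0.793% in WT-1, WT-2 and WT-3 (exact permutation within genotype, p = 1). Ndufs7, a subunit of complex I, was 0.86 ± 0.07 higher (SE, adjusted p = 0.00014), while Atp5b of the ATP synthase was at -0.18 ± 0.06 (SE, adjusted p = 0.068). Without WT-3, 1 gene of this list was called higher, and without TG-3, 8 were. Mitochondrial ribosomal proteins were higher in 15 (19.2%) and lower in 2 of 78, and Mrps12 and Mrps15 were 0.82 ± 0.09 and 0.72 ± 0.08 higher (SE). Among the 60 sharing under 10% of their 31-mers, 7 were called higher and 0 lower, with a median of 0.04. Most calls of this list were lost without TG-3 or without WT-3.

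Markers of astrocytes, vessels, microglia and neurons were examined next. In bulk tissue, fewer cells of a type and less RNA per cell cannot be told apart. Of 16 astrocyte markers, 6 (37.5%) were called lower and 1 (6.25%) higher, against 6.36% and 7.66% of all genes, with a median of -0.14. Gjb6, a gap junction protein, had 1448, 1422, 1366 and 1423 normalized counts in TG-1, TG-2, WT-1 and WT-2 and 914 and 983 in TG-3 and WT-3 (-0.58 ± 0.07 SE, adjusted p = 0.0013). Aldh1l1 and Fgfr3 were lower by similar sizes (-0.46 ± 0.08 and -0.44 ± 0.07 SE), as were Aldoc, Glul and Aqp4 by less. Sox9, a transcription factor of astrocytes, was the marker that was higher (0.62 ± 0.13 SE, adjusted p = 0.017), and the most abundant one, the glutamate transporter Slc1a2, did not pass the test (-0.13 ± 0.07 SE, adjusted p = 0.25). The summed level of the list was 224054 in TG-3 and 230645 in WT-3 against 237515 to 266345 in the others. Without TG-3 or without WT-3, 1 astrocyte marker was called lower and 0 higher.

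Markers of vessels and microglia were called lower in smaller numbers, to be read against 6.36% of all genes. Of 16 microglial markers, 3 (18.8%) were called lower, the receptors Csf1r, Cx3cr1 and P2ry12, with differences of -0.35 ± 0.07, -0.42 ± 0.10 and -0.34 ± 0.09 (SE, adjusted p = 0.015, 0.030 and 0.036), while Aif1 was at 0.46 ± 0.14 (SE, adjusted p = 0.061). Of 12 mural cell markers 0 of the differences lay above 0, the median was -0.32, and 2 (16.7%) were called lower, Myl9 (-0.48 ± 0.09 SE) and the pericyte gene Rgs5 (-0.25 ± 0.06 SE). Among 14 endothelial markers, 3 (21.4%) were called lower, the transporters Slco1a4 (-0.40 ± 0.07 SE, adjusted p = 0.0082) and Slc2a1 (-0.26 ± 0.06 SE) and the membrane protein Itm2a (-0.34 ± 0.08 SE). The adhesion molecule Pecam1 went the other way, with 811, 722, 755 and 657 normalized counts in the 4 libraries and 2359 and 2559.8 in TG-3 and WT-3 (1.74 ± 0.09 SE, adjusted p = 1.2e-05). Of 54 collagens and laminins 7 were called lower and 1 higher, in all 14.8%, close to the 14.0% called over all genes, the basement membrane collagens Col4a1 and Col4a2 being lower, at -0.43 ± 0.09 and -0.52 ± 0.08 (SE), and Col4a3, of the same collagen type, being the one that was higher (1.30 ± 0.28 SE, adjusted p = 0.018). Without TG-3, limma called 0 of the microglial, mural and collagen and laminin genes, with 3, 1 and 10 lower at an unadjusted p of 0.05, and without WT-3 it called 0, with 4, 7 and 10. Pecam1 was still called higher each time, and 0 endothelial markers were called lower.

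Some markers of excitatory neurons were higher. Of 10 on the list, 3 (30%) were called higher and 0 lower, against 7.66% and 6.36% of all genes. Nrgn, a calmodulin-binding protein of dendritic spines, had 48536, 39612, 42858 and 40016 normalized counts in TG-1, TG-2, WT-1 and WT-2 and 73600 and 75556 in TG-3 and WT-3 (0.81 ± 0.09 SE, adjusted p = 0.00082). The transcription factors Neurod2 and Neurod6 were 0.72 ± 0.06 and 0.32 ± 0.08 higher (SE, adjusted p = 0.00026 and 0.027), while the vesicular glutamate transporter Slc17a7 differed by 0.05 ± 0.06 (SE, adjusted p = 0.57). Among 10 genes of layer 5, 3 were higher, namely Fezf2 (0.70 ± 0.08 SE, adjusted p = 0.00090), Tshz2 (0.63 ± 0.11 SE) and Bcl11b (0.38 ± 0.11 SE), and among 10 genes of layers 2 and 3, 0 were higher and 1, Mdga1, was lower (-0.49 ± 0.10 SE). Of 11 genes of layer 6, 1, Drd1, was higher (0.50 ± 0.13 SE). Of 16 interneuron markers 0 were called by limma in either direction, with 3 higher and 3 lower at an unadjusted p of 0.05 and a median of -0.02. A block for the replicate number added calls of Lhx6, higher, and Reln, lower (adjusted p = 0.048 and 0.024). Of 24 myelin genes 1 was called higher (Gjb1) and 1 lower (Mbp), and of 12 oligodendrocyte precursor genes 0 were called, also at an unadjusted p of 0.05. Without TG-3, 2 genes of each of the excitatory neuron and layer 5 lists were called. Without WT-3, 0 of the layer 5 genes and 2 of the excitatory neuron genes were called.

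Markers of tissues at the edge of a dissection were read for the same libraries. Among 9 tested genes of the choroid plexus, 1 was called, the thyroid hormone carrier Ttr, with 127, 22.9, 14.3 and 12.6 normalized counts in TG-1, TG-2, WT-1 and WT-2 and 445 and 41.7 in TG-3 and WT-3 (2.29 ± 0.59 SE, adjusted p = 0.034), so WT-3 lay below TG-1. The call was lost without TG-3 and without WT-3 (adjusted p = 0.34 and 0.14). Of 14 leptomeningeal genes 2 (14.3%) were called lower, against 6.36% of all genes. They were the collagens Col1a1 (-0.43 ± 0.10 SE, adjusted p = 0.021) and Col3a1 (-1.14 ± 0.32 SE, adjusted p = 0.048), which are also on the collagen and laminin list. Ptgds, the most abundant of the 14, and Mgp were at 0.20 ± 0.07 and 0.35 ± 0.13 (SE, adjusted p = 0.11 for each). In all, 4 of the 14 differences lay above 0. Of 12 ependymal genes 1 was called higher, Ccdc153, at 70.3 normalized counts in WT-3 and 4.62 to 13.5 in the others. Each of the counts of 1 (11.1% and 8.33%) is near the 7.66% of all genes called higher. The summed level of the ependymal list was 752.5 in WT-3 and 407 to 502 in the other 5 libraries, so WT-3 stood apart and TG-3 did not. Of 6 erythroid genes 3 globin genes were called higher, Hba-a2 (0.80 ± 0.12 SE, adjusted p = 0.0034), Hbb-bt (0.56 ± 0.14 SE) and Hbb-bs (0.42 ± 0.11 SE), which share 54.4% to 92.6% of their 31-mers with other genes, and the heme synthesis gene Alas2, which shares 0%, was at -0.11 ± 0.15 (SE, adjusted p = 0.67). The other alpha-globin gene, Hba-a1, was at 0.01 ± 0.15 (SE, adjusted p = 0.97) and Slc4a1, an anion exchanger of red cells, at -0.95 ± 0.67 (SE, adjusted p = 0.38).

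**Figure D5:**
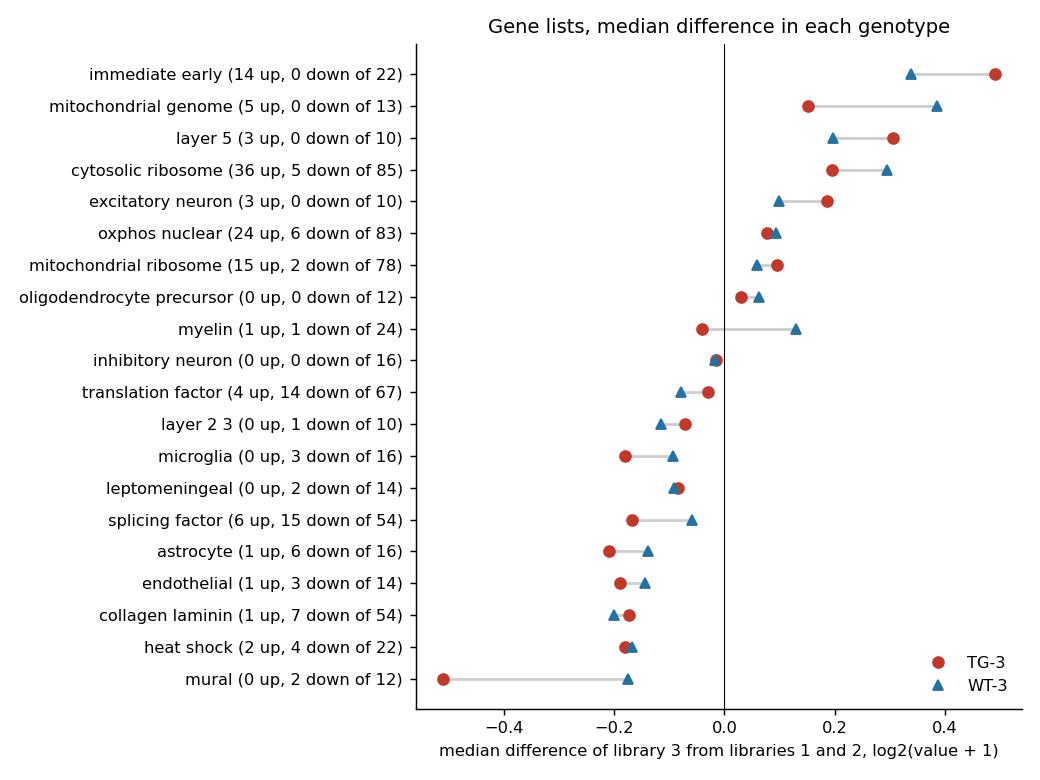
For 20 gene lists, the median difference of TG-3 (circles) and of WT-3 (triangles) from libraries 1 and 2 of the same genotype is plotted in log2(value + 1), with the number of genes called in each direction beside the name. Among these 20 lists, the 2 medians have the same sign for all but myelin. Immediate early genes are highest and mural markers lowest in TG-3, and the mitochondrial genome highest and collagens and laminins lowest in WT-3. Some lists that are not plotted had higher medians in WT-3, such as choroid plexus (0.69) and ependymal genes (0.62).

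Genes of RNA and protein handling moved in both directions. Of 54 splicing factors, 15 (27.8%) were called lower and 6 (11.1%) higher, against 6.36% and 7.66% of all genes, with a median of -0.12. Srsf11, Luc7l3 and Srrm1 were higher by 0.81 ± 0.06, 0.79 ± 0.08 and 0.59 ± 0.06 (SE, adjusted p = 0.00013, 0.00052 and 0.00057), while Srrm2, the most abundant, was at -0.02 ± 0.06 (SE, adjusted p = 0.87). Of 67 translation factors, 14 were lower and 4 higher. Eif2s2, a subunit of the initiation factor that delivers the first tRNA, rose from between 1534 and 1603 normalized counts to 2426 and 2624, and Eif3b fell by 0.32 ± 0.06 on the log2 scale (SE, adjusted p = 0.0094). Of 22 chaperones, the cytosolic Hsp90ab1 and Hsp90aa1 were higher by 0.39 ± 0.07 and 0.41 ± 0.10 (SE). Hspa8 and the endoplasmic reticulum proteins Hspa5, Pdia4 and Pdia6 were lower, with differences of -0.30, -0.43, -0.48 and -0.36. Hsp90ab1, Hsp90aa1 and Hspa8 share 13.2%, 51.4% and 43.5% of their 31-mers with other genes. Of the 13 chaperones sharing under 10%, 0 were called higher and 3 lower. Without TG-3, 5 splicing factors were higher and 1 lower, 2 translation factors were higher and 1 chaperone was, and without WT-3 the counts were 3 and 1, 1, and 0.

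Chromatin regulators, synaptic genes and the clock also held called members. Of 28 histone methyltransferases and related chromatin genes, 8 (28.6%) were higher and 2 lower. The corepressor Ncor1 had 6139, 6297, 6653 and 6834 normalized counts in TG-1, TG-2, WT-1 and WT-2 and 11402 and 12314 in TG-3 and WT-3 (0.87 ± 0.05 SE, adjusted p = 2.8e-05), and Kmt2d was lower (-0.52 ± 0.07 SE, adjusted p = 0.0021). At the synapse, 5 of 28 presynaptic genes were higher and 1 was lower, and 4 of 26 glutamate receptor genes were higher and 1, Grin2c, was lower (-0.38 ± 0.08 SE). Among them, the calcium sensor Syt1 and the NMDA receptor subunit Grin2b were higher by 0.50 ± 0.07 and 0.53 ± 0.10 (SE, adjusted p = 0.0025 and 0.0094). In the postsynaptic scaffold list, 3 of 24 were higher (12.5%, against 7.66% of all genes), among them Dlgap4 (0.64 ± 0.08 SE), and 5 were lower (20.8%, against 6.36%), namely Dlg1 (-0.45 ± 0.06 SE), Dlg2, Dlg3, Dlg4 and Shank3. The vesicle protein Sv2a was higher (0.31 ± 0.05 SE), while Snap25, the most abundant presynaptic gene, was at 0.01 (adjusted p = 0.96) and at -0.27 with quantile normalization (adjusted p = 0.0093). Of 18 clock genes 4 were higher and 4 lower. Rorb, a nuclear receptor of the clock list that also marks cortical layer 4, had 1974 and 2072 normalized counts in TG-1 and TG-2 and 540 in TG-3, and 1151 and 1124 in WT-1 and WT-2 and 586 in WT-3 (-1.43 ± 0.17 SE, adjusted p = 0.0013). Hlf and Ciart were higher (0.51 ± 0.07 and 0.60 ± 0.08 SE), as were Nr1d1 and Per1 (0.29 ± 0.07 and 0.25 ± 0.07 SE). Arntl and Clock were lower (-0.31 ± 0.07 and -0.26 ± 0.07 SE), as was Nr1d2 (-0.33 ± 0.08 SE). Ciart shares 20.8% of its 31-mers with other genes. Without TG-3, 1 chromatin gene was higher and 2 lower, 1 postsynaptic gene was called each way and 1 clock gene was lower, and without WT-3 2 chromatin genes were higher, 0 postsynaptic genes were called (3 higher and 1 lower at an unadjusted p of 0.05) and 1 clock gene was lower.

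Shank3, the gene of the transgene, was checked against the labels. It had 17470, 19004 and 16310 normalized counts in TG-1, TG-2 and TG-3 and 8374, 8173 and 6791 in WT-1, WT-2 and WT-3, so every TG library lay above every WT library. Within each genotype the library numbered 3 was the lowest, with a difference of -0.22 ± 0.06 (SE, adjusted p = 0.045), and that call was lost on leaving out any one of the 6 libraries.

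Sequence composition had a weak relation to the differences. Among protein-coding genes, the share of called genes fell from 19.8% in the fifth with the lowest GC content to 10.2% in the fifth with the highest, and the median difference went from -0.05 to 0.02. The Spearman correlation of the difference with GC content across 15826 genes was 0.08, with transcript length -0.02 and with gene span -0.07, values that describe genes sharing the same 6 libraries. Pseudogenes of all kinds were called in 118 of 724 (65 higher and 53 lower, in all 16.3% against 14.0% of all genes), and the 1292 pseudogenes of the whole table, untested ones included, took 0.927%, 0.913% and 0.885% of normalized counts in TG-1, TG-2 and TG-3 and 1.00%, 0.920% and 1.01% in WT-1, WT-2 and WT-3. The number of genes above 0 was lowest in TG-3 and WT-3 at 17962 and 17931, against 18008 to 18077 in the others.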

How the data were processed

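RNA sequencing libraries of the mPFC of Shank3 TG and WT mice, 3 of each genotype and 2 mice pooled in each, were prepared with a stranded mRNA kit and sequenced as paired ends. The study's methods state that a company, Macrogen, extracted the RNA, made the libraries and sequenced them. The authors quantified reads with Salmon 0.9.1 on GRCm38 with GC bias correction, summed them to genes with tximport in R 3.6.0 and normalized them in DESeq2 1.19.11. Whether every library was quantified with the same index and run settings is not given in the sources used here. The deposited signal is the resulting normalized read count per gene and library. Values were not whole, at most 41.1% of low values in a library lay within 0.05 of a whole multiple of one step, and reads were not recovered, so counting intervals were not given and sums of normalized counts stand for depth. The table held 0 columns without a sample.

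Differences were fitted with limma 3.58.1 in R 4.3.3 on log2(value + 1), so changes of genes with low values are understated, for 16714 genes with a mean of at least 5, with terms for genotype and library number 3 and eBayes with a trend (3 residual degrees of freedom). Tests were 2-sided and Benjamini-Hochberg adjusted over all tested genes at 0.05. A second fit added their interaction. Shares of counts were compared with an exact permutation test within genotype, which cannot go below 0.111. Per-gene positions, transcripts and shared 31-mers came from GENCODE M21 (18231 of 18254 genes matched) and promoters from RefSeq. A gene at 0 was compared with a floor of 3 normalized counts per library.

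The libraries, the number 3 and the gene lists were chosen with earlier results of these data known, so p-values describe a contrast picked because it was large. Named genes were the 8 with the smallest p in each direction (mean of at least 50, library 3 on one side of both others in each genotype), the 5 with the largest differences, up to 4 members of each list (the most abundant and those with the smallest p), Shank3 and 3 interaction genes. Others were named after their values were seen, namely partners of copies, neighbours, members behind a count of 5 or fewer and further members of the lists described. Same-numbered libraries deviated together, with correlations of 0.30, 0.33 and 0.62 for numbers 1, 2 and 3, the last being the contrast itself. The mismatched combinations of numbers 1 and 2 were nearly as high (0.23 and 0.27), so for those numbers the pairing is weakly marked. A fit with the number as a block was run, besides other pseudocounts, filters, normalizations, eBayes options and leaving out each library. The authors' own comparisons were not used.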

Additional observations from a re-analysis of the deposited data

Results flagged for a closer look

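The difference between the libraries numbered 3 and the others was itself different in TG and WT, by the interaction term of the limma fit, for 5 genes (0.0299% of 16714, with 566 at an unadjusted p of 0.05). Rpl10a-ps1, a copy of Rpl10a, had 1269 and 1295 normalized counts in TG-1 and TG-2 and 121 in TG-3, but 1434 and 1247 in WT-1 and WT-2 and 0 in WT-3, so that the TG difference was 6.99 above the WT difference (adjusted p = 9.9e-05). Gm9843, the copy of Fau, showed the same order, with 46.2 in TG-3 and 0 in WT-3, and an interaction of 5.61 (adjusted p = 0.00043). For Gm14303, a copy of Rps29, the values were 32.2 in TG-3 and 0 in WT-3 against 198 to 305 in the others, and the interaction was 5.13 (adjusted p = 0.036).

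A pair of genes was at 0 in TG-3 instead. CR974586.6, on an unplaced scaffold, had 388 and 436 normalized counts in TG-1 and TG-2 and 0 in TG-3, and 387, 508 and 159 in WT-1, WT-2 and WT-3, with an interaction of -7.21 (adjusted p = 0.00043). Rsc1a1, which lies within Ddi2 and shares 100% of its 31-mers with it, had 86.6, 77.0 and 0 in TG and 56.5, 76.6 and 32.2 in WT, with an interaction of -5.36 (adjusted p = 0.036). Each of these 5 was lower in the library numbered 3 of both genotypes, and each interaction rests on 1 library at 0, where the size of a log2 difference depends on the pseudocount.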

How the results depend on the processing

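The number of called genes, 2344, was 2272 to 2617 under other pseudocounts, filters and normalizations, the robust option and a fit without genotype, and 533 with eBayes without a trend. With the replicate number as a block, which pairs TG and WT libraries, it was 2669. The block ended the calls of mt-Atp6 (adjusted p = 0.060) and Snhg11 (0.068), a long noncoding RNA, and, among genes of the report, added those of Homer1 (0.013), Ier2 (0.020), Reln and Lhx6. Leaving out each library in turn gave 222 (without WT-3) to 2554 genes. Genes called higher were 54.7% of those called, and 77.9% without a trend, 74.6% without TG-3 and 70.3% without WT-3. Of the 133 named called genes, 66 stayed called without TG-3, 45 without WT-3 and 53 without a trend, each in the same direction. The interaction count of 5 was 9 when the pseudocount was 0.1 and 3 when it was 5, as it was without a filter or with quantile normalization. The first principal component carried 48.2% and 54.4% of variance with those pseudocounts, 44.5% without a filter and 68.6% with a mean of at least 50. With quantile normalization Snhg11 was at -0.11 (otherwise 0.22) and Snap25 at -0.27 (otherwise 0.01). The causes were not tested. Summing near-identical genes (2408 called) and keeping those sharing under 10% of 31-mers (2027) were chosen after the data were seen. With 2 libraries numbered 3, each a pool, and no read numbers used, small differences of genes with low values are limited by spread and depth.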

Other observations

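Counts for some other gene groups are given beside 7.66% of all genes called higher and 6.36% lower. Of 375 zinc finger genes 26 were called lower and 13 higher, with a median of -0.07, and of 79 potassium channels 5 were lower and 4 higher. Among 57 clustered protocadherins 3 were higher and among 39 proteasome genes 6 were higher and 5 lower. Of 21 genes of cholesterol synthesis 2 were lower, Idi1 (-0.38 ± 0.07 SE, adjusted p = 0.0073) and Hmgcs1 (-0.30 ± 0.07 SE, adjusted p = 0.027). Of 15 interferon-stimulated genes 2 were higher, Ifit1 (1.11 ± 0.26 SE, adjusted p = 0.024) and Xaf1 (0.68 ± 0.17 SE, adjusted p = 0.029). Of 14 glucocorticoid-responsive genes 4 were higher, among them Nr3c1 (0.40 ± 0.10 SE), the receptor itself, and Fkbp5, a chaperone that binds it, was lower (-0.51 ± 0.13 SE, adjusted p = 0.029). The median of that list was -0.13, and 5 of its 14 differences lay above 0. Pcp4l1, of 12 genes of olfactory neuroblasts, was higher (0.65 ± 0.12 SE, adjusted p = 0.0088), while Gng7 and Drd1, of 11 striatal genes, were lower (-0.49 ± 0.13 SE) and higher (0.50 ± 0.13 SE).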
